A study of Mus musculus with 8 samples.

Results

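The genes described here are the keratins and the genes of the cornified envelope, read in the gastrocnemius, a calf muscle, of 8 male mice. Symbols were taken from the deposited table where they read Krt followed by a number, began with Lce or Sprr, or were Lor, Flg, Krtdap, Dsg1a, Sbsn or Ivl. Of the 94 symbols that matched, the 42 that reached at least 1 FPKM in at least 1 of the 8 mice were kept, out of 38741 symbols in all. FPKM is a fragment count scaled to transcript length and to the mapped total of the library, so levels can be set side by side between genes. Just above the threshold stood Krt19 with a highest value of 1.05 FPKM and Krt75 with 1.06 FPKM, and just under it stood Krt16 with 0.513 FPKM and Lce3c with 0.345 FPKM. Of the 52 left out, 27 were listed at 0 in all 8 mice. The 42 are 19 keratins, 15 Lce genes, 2 Sprr genes and 6 others.

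The 4 wild-type mice (columns WT1 to WT4, 9 to 10 weeks old) and the 4 mice homozygous for the Bcat2tm1.2Clyn allele (columns KO5 to KO8, 10 to 11 weeks old) were all on a C57BL6 background. Mice of both genotypes chose between chow and a diet without branched-chain amino acids. Bcat2 encodes the mitochondrial enzyme that opens the breakdown of those amino acids, and its transcript ranged over 41.2 to 83.0 FPKM across WT1 to WT4 but 2.09 to 5.26 FPKM across KO5 to KO8, as the column names have it. The labels number the knockouts differently from the columns, so no age or weight can be given for a single knockout column. Relative depth, estimated from low FPKM values, ran from 0.437 in WT4 to 1.23 in WT3 times that of WT2, and stood at 0.727 in KO6. Muscle fibre genes such as Ckm, the muscle creatine kinase, at 10059 to 13975 FPKM were high in all 8 mice.

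Keratins are the intermediate filament proteins of epithelial cells, and each filament pairs a type I with a type II chain. In the epidermis, dividing basal cells make Krt5 with Krt14, the spinous cells above them switch to Krt1 with Krt10, and the granular cells then deposit loricrin, filaggrin, involucrin, small proline-rich (Sprr) and late cornified envelope (Lce) proteins under the membrane, where they are cross-linked into the cornified envelope. Simple epithelia use Krt8 with Krt18 and Krt19 instead. Skeletal muscle has no epidermis, and its fibres are held by desmin filaments, although Krt8 and Krt19 have been described at the edge of muscle fibres.

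The genes lie in a few clusters of the genome. Of the 42, 20 lie on chromosome 3, from 92080275 to 93293691 of mm10. These 20 span 1213417 bp within the epidermal differentiation complex. Another 11 lie on chromosome 15 (the type II keratins and Krt18), 8 on chromosome 11 (the type I keratins) and 2 on chromosome 7 (Sbsn and Krtdap). Dsg1a lies apart from them. The RefSeq promoter table of build GRCm38.p6 holds 33 of the 42, and its start lies within 50 bp of the deposited gene boundary for 30 of them. In the 250 bases before the start, the letters TATAAA on either strand occur in 10 of the 33 (30.3%), against 12.4% of all 32851 promoters in the table. The letters TGANTCA, the core bound by AP-1 factors, occur in 6 of the 33 (18.2%) against 6.75% of all promoters, GGGCGG in 1 of the 33 (3.03%) against 32.7% of all, and GCCNNNGGC in 1 of the 33 (3.03%) against 13.7% of all, both strands being searched each time. These shares are a description, and a match is not a measured binding site.

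The 6 promoters with TGANTCA belong to 4 cornified envelope genes (Lor, Sprr1a, Ivl and Flg) and to the neighbours Sbsn and Krtdap, and they are shown because they share these letters. The last 150 bases before the start are given 5′ to 3′, with TGANTCA and TATAAA matches in capitals, which do not overlap each other. The Krt5 promoter, of a basal keratin, holds neither. Also without TGANTCA are the promoters of Sprr4, of all Lce genes held, and of the spinous Krt10, Krt77, Krt2 and Krt78. The letters thus do not separate the basal layer from the layers above it.
Lor, chr3:92083143-92083292, minus strand: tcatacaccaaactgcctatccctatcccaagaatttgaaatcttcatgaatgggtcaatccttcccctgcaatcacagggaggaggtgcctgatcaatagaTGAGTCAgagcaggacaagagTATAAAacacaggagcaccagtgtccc
Sprr1a, chr3:92485882-92486031, minus strand: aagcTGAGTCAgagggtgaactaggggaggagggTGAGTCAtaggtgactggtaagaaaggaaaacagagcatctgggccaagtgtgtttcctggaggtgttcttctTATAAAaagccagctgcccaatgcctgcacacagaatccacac
Ivl, chr3:92573736-92573885, minus strand: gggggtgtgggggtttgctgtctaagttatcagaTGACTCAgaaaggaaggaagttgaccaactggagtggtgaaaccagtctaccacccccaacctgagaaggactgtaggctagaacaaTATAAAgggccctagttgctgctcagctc
Flg, chr3:93273396-93273545, plus strand: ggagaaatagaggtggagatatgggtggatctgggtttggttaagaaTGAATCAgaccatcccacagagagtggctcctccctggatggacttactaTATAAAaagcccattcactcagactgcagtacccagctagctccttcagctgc
Krtdap, chr7:30787755-30787904, plus strand: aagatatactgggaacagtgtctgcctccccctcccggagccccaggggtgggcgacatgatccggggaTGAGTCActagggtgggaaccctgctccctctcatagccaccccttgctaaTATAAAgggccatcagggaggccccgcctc
Sbsn, chr7:30751321-30751470, plus strand: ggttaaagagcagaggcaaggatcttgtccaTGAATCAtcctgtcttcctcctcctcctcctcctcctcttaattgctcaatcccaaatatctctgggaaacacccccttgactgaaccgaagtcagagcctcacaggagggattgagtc
Krt5, chr15:101712906-101713055, minus strand: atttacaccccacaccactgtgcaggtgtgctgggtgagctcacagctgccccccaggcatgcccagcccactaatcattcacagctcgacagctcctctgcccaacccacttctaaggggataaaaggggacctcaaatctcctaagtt
Sprr1a carries TGANTCA at 2 places. In Lor the match begins 48 bases before the start, in Krtdap 81, in Flg 103, in Ivl 116 and in Sbsn 119.

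The genes were found almost wholly in 1 mouse. The column KO6 held the highest value of 38 of the 42, KO5 that of 3 (Krt8, Krt18 and Krt19) and WT1 that of 1 (Krt222). KO6 carried over 95% of the FPKM summed over the 8 mice for 35 genes and over 99% for 26 genes, and 8 genes were listed at 0 in each of the other 7 mice. The FPKM of all 42 summed to 2287 in KO6, which was 0.261% of all FPKM of that library, and to 6.76 to 19.8 in the other 7 mice. The other 3 knockouts, at 14.1, 10.7 and 9.51 FPKM, lay inside the wild-type range of 6.76 to 19.8 FPKM. That holds for the sum of all 42 and not for every part of it. Lce genes summed to 0.322, 0.618 and 0.968 FPKM in KO5, KO7 and KO8, against 0 to 0.118 FPKM in wild type. Basal genes summed to 0, 0.530 and 0.566 FPKM there, against 0.0478 to 0.218 FPKM. Spinous genes, at 6.20 to 6.92 FPKM, lay inside the wild-type 3.35 to 14.5 FPKM.

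**Figure D1:**
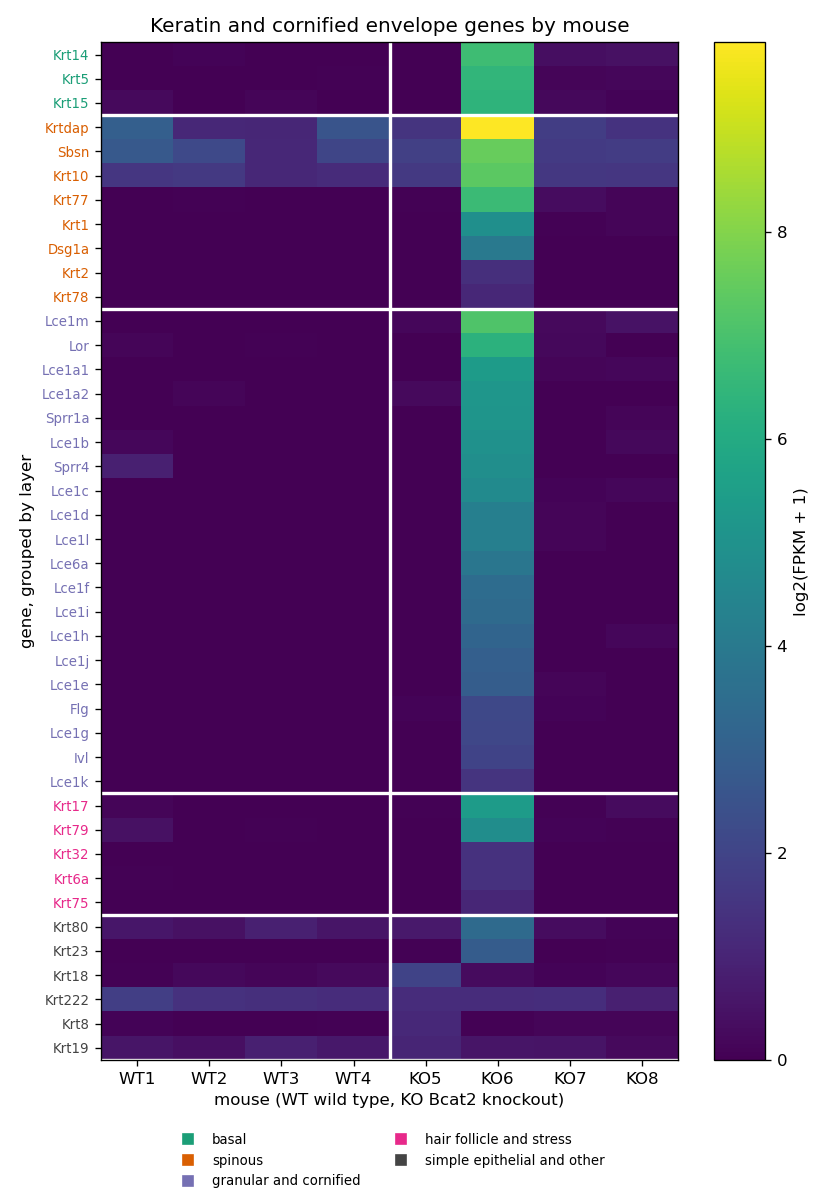
Colour gives log2(FPKM + 1) of each of the 42 genes (rows, grouped by epidermal layer and coloured by group) in each mouse (columns). The KO6 column is bright in all groups, through Krt80 and Krt23 alone in the last one, where Krt222 and Krt19 run across all mice and Krt18 and Krt8 stand out in KO5.

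The basal layer was represented by 3 genes. Krt14 (ENSMUSG00000045545, mm10 chromosome 11, 100203162 to 100207548), the type I keratin of dividing basal cells, stood at 0, 0.0808, 0 and 0 FPKM across WT1 to WT4 and at 0, 108, 0.291 and 0.365 FPKM across KO5 to KO8. Its partner Krt5 (ENSMUSG00000061527, mm10 chromosome 15, 101707070 to 101712891) stood at 0.0220, 0.0221, 0.0179 and 0.0478 FPKM across WT1 to WT4 and at 0, 86.6, 0.0962 and 0.124 FPKM across KO5 to KO8. Krt15, a basal keratin also known from the hair follicle bulge, stood at 0.196, 0, 0.0907 and 0 FPKM across WT1 to WT4 and at 0, 82.9, 0.143 and 0.0765 FPKM across KO5 to KO8. KO6 alone was high for all 3, and the next mouse stood at most at 0.365 FPKM. In KO6 the level of Krt5 was 0.804 times that of Krt14, both per length. Krt14 shares 13.9% of its 50-base stretches with other transcripts, mostly Krt16, and Krt5 shares 12.2%, mostly with Krt6a, so uniquely mapped reads can undercount both.

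The spinous layer held the most abundant genes. Krtdap (ENSMUSG00000074199, mm10 chromosome 7, 30787905 to 30791083), a small secreted protein of differentiating keratinocytes, stood at 6.86, 1.15, 1.08 and 4.91 FPKM across WT1 to WT4 and at 1.76, 910.3, 2.40 and 1.72 FPKM across KO5 to KO8. Krt10 (ENSMUSG00000019761, mm10 chromosome 11, 99385254 to 99389364), the type I keratin of spinous cells, stood at 1.94, 2.09, 1.11 and 1.34 FPKM across WT1 to WT4 and at 2.07, 162, 2.04 and 1.91 FPKM across KO5 to KO8. Sbsn, or suprabasin, a secreted protein of the same cells, stood at 5.67, 3.49, 1.15 and 3.18 FPKM across WT1 to WT4 and at 2.62, 184, 2.15 and 2.35 FPKM across KO5 to KO8. Unlike the basal keratins, these 3 were above 1 FPKM in each of the 8 mice, and KO6 exceeded the next mouse 133-fold for Krtdap, 77.3-fold for Krt10 and 32.4-fold for Sbsn. Krt77, a type II keratin of suprabasal cells, stood at 0, 0.0503, 0 and 0 FPKM across WT1 to WT4 and at 0.0311, 104, 0.258 and 0.0902 FPKM across KO5 to KO8. Krt1, the usual partner of Krt10, stood at 0.0200, 0, 0 and 0 FPKM across WT1 to WT4 and at 0, 28.9, 0.0342 and 0.108 FPKM across KO5 to KO8. In KO6 the level of Krt1 was therefore 0.179 times that of Krt10. The desmosomal cadherin Dsg1a stood at 0.00840, 0, 0 and 0 FPKM across WT1 to WT4 and at 0, 14.7, 0.0219 and 0.0105 FPKM across KO5 to KO8, with 35.0% of its 50-base stretches shared, mostly with Dsg1b. Krt2 and Krt78, late suprabasal keratins, were low even in KO6, at 1.52 and 1.14 FPKM.

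The granular and cornified layers gave 20 genes, all highest in KO6. Lor (ENSMUSG00000043165, mm10 chromosome 3, 92080275 to 92083142), the glycine-rich main protein of the envelope, stood at 0.0897, 0, 0.0303 and 0 FPKM across WT1 to WT4 and at 0, 78.8, 0.170 and 0 FPKM across KO5 to KO8. Lce1m (ENSMUSG00000027912, mm10 chromosome 3, 93017807 to 93019060), the highest of the envelope genes, was listed at 0 across WT1 to WT4 and at 0.134, 138, 0.184 and 0.403 FPKM across KO5 to KO8. Its groups did not overlap, but KO5, KO7 and KO8 reached at most 0.403 FPKM. It was the only 1 of the 42 genes with groups that did not overlap. Among genes with a mean of at least 1 FPKM, this is 1 of 27, against 6.75% of the 11118 genes tested between genotypes. Sprr1a, an envelope cross-bridge protein, was listed at 0 across WT1 to WT4 and at 0, 34.2, 0 and 0.101 FPKM across KO5 to KO8.

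Within the Lce family, 15 of 21 symbols reached the threshold, 14 of them Lce1 genes and the other Lce6a, with KO6 values from 1.75 FPKM for Lce1k to 138 FPKM for Lce1m. After Lce1m came Lce1a1, which was listed at 0 across WT1 to WT4 and at 0, 41.1, 0.0844 and 0.136 FPKM across KO5 to KO8. Lce1a2 stood at 0, 0.104, 0 and 0 FPKM across WT1 to WT4 and at 0.188, 34.7, 0 and 0 FPKM across KO5 to KO8, and Lce1b stood at 0.118, 0, 0 and 0 FPKM across WT1 to WT4 and at 0, 30.7, 0 and 0.161 FPKM across KO5 to KO8. All 3 were high in KO6 alone. All 6 Lce3 symbols fell under the threshold, with Lce3c the highest of them. Lce1 copies are alike, and for 11 of the 14 more than 10% of the 50-base stretches recur in another transcript, so the split among the copies is uncertain. The 12 Sprr2 symbols stayed at or under 0.244 FPKM (Sprr2h in KO6), while Sprr4 read 27.9 FPKM in KO6 and 0.808 FPKM in WT1. Flg, or filaggrin, which binds keratin filaments together, and Ivl, or involucrin, an early scaffold of the envelope, read 3.34 and 2.92 FPKM in KO6 and at most 0.0650 and 0.0249 FPKM in the other mice. The 4 envelope genes with TGANTCA in the promoter spanned 2.92 to 78.8 FPKM in that library.

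Keratins of the hair follicle and of stressed epidermis gave 5 genes, all highest in KO6. Krt17, of the outer root sheath and wounded skin, stood at 0.0896, 0, 0 and 0 FPKM across WT1 to WT4 and at 0.0529, 41.3, 0.0504 and 0.208 FPKM across KO5 to KO8. Krt79, of the follicle opening and sebaceous duct, stood at 0.341, 0.0223, 0.0364 and 0 FPKM across WT1 to WT4 and at 0, 27.1, 0.0777 and 0.0311 FPKM across KO5 to KO8. The remaining 3 were low. Krt32, of the hair cuticle, was listed at 0 across WT1 to WT4 and at 0, 1.68, 0 and 0 FPKM across KO5 to KO8. Krt6a, of the outer root sheath and wounds, stood at 0.0418, 0, 0.0172 and 0 FPKM across WT1 to WT4 and at 0, 1.66, 0 and 0 FPKM across KO5 to KO8, and Krt75, of the companion layer, stood at 0, 0.0146, 0 and 0 FPKM across WT1 to WT4 and at 0, 1.06, 0 and 0.0199 FPKM across KO5 to KO8. Krt6a shares 57.2% of its 50-base stretches, mostly with Krt6b. The inner root sheath keratins Krt25, Krt27, Krt28, Krt71, Krt72 and Krt73, made by growing hairs, summed to 0.153 FPKM in KO6, with 4 of the 6 listed at 0 there. The hair shaft keratins in the table summed to 1.91 FPKM in KO6, most of it Krt32, and the mucosal keratins Krt4, Krt13 and Krt76 to 0.157 FPKM. Among keratins of the growing hair, Krt32 and Krt75 thus passed 1 FPKM in KO6, a level like that of the epidermal Krt2 and Krt78, and those of the inner root sheath and of mucosa stayed near 0.

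**Figure D2:**
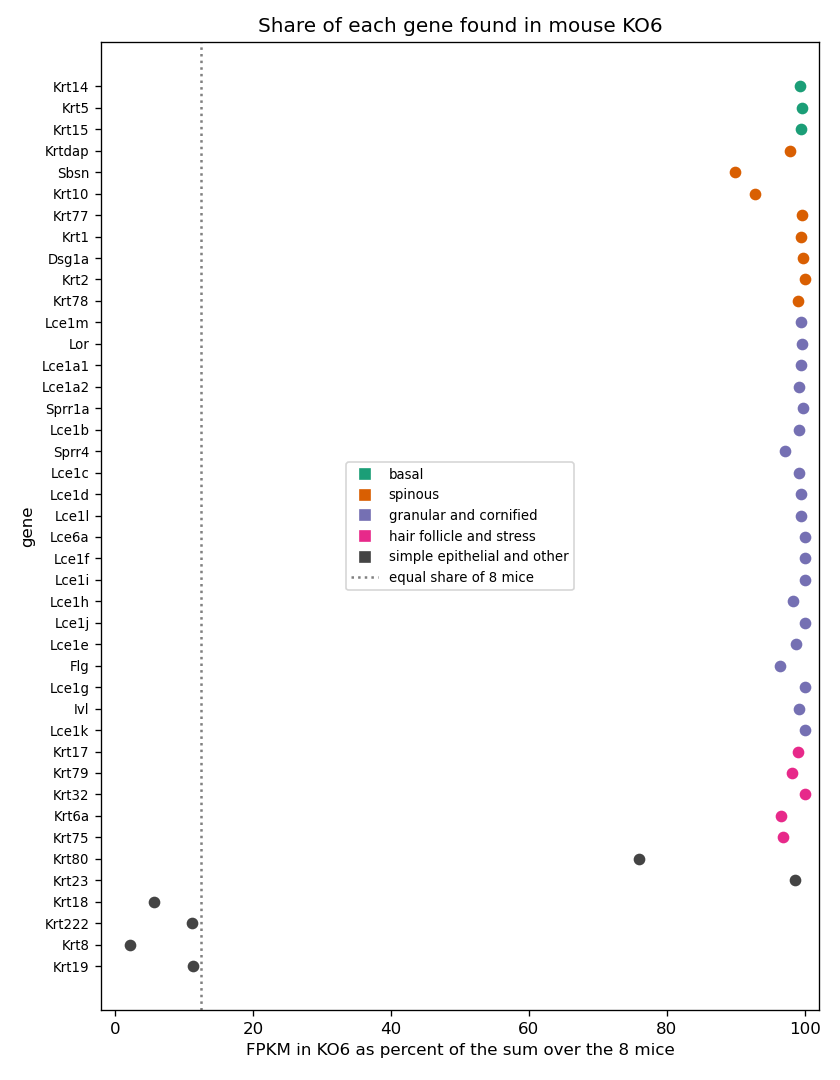
Each point is the KO6 value of 1 gene as a percent of its FPKM summed over the 8 mice, coloured by layer, with the dotted line at an equal share. All basal and cornified genes lie above 95%, Krt80 lies at 76.0%, and Krt18, Krt222, Krt8 and Krt19 lie under the line.

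The last group asks which keratins were not part of the KO6 pattern. Krt222, a keratin-like protein without the usual filament partners, stood at 2.51, 1.64, 1.50 and 1.41 FPKM across WT1 to WT4 and at 1.34, 1.35, 1.46 and 0.839 FPKM across KO5 to KO8. It was present in all 8 mice, and its KO6 value lay inside the range of the others. Krt19, the smallest keratin of simple epithelia, stood at 0.452, 0.305, 0.809 and 0.567 FPKM across WT1 to WT4 and at 1.05, 0.487, 0.442 and 0.204 FPKM across KO5 to KO8, with the groups overlapping widely. The wild-type mean was 0.534 ± 0.213 FPKM and the knockout mean 0.545 ± 0.358 FPKM (SD, n = 4 per genotype).

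Krt18 (ENSMUSG00000023043, mm10 chromosome 15, 102028216 to 102032026), the type I keratin of simple epithelia, stood at 0.0316, 0.153, 0.0992 and 0.203 FPKM across WT1 to WT4 and at 2.94, 0.215, 0.0549 and 0.133 FPKM across KO5 to KO8. Its type II partner Krt8 (ENSMUSG00000049382, mm10 chromosome 15, 101996711 to 102004342) stood at 0.0750, 0, 0 and 0.0532 FPKM across WT1 to WT4 and at 1.17, 0.0339, 0.0867 and 0.106 FPKM across KO5 to KO8. Both were high in KO5 alone, with Krt8 at 0.398 times the level of Krt18. In KO6, Krt18 stood at 0.215 FPKM, next to the highest wild-type value of 0.203 FPKM, and Krt8 at 0.0339 FPKM, against at most 0.0750 FPKM in wild type. In KO5 the skin keratins Krt14, Krt5 and Krt15 were all listed at 0. Of the Krt8 sequence, 29.7% of the 50-base stretches recur elsewhere, mostly in the pseudogene Krt8-ps. The simple epithelial keratins Krt7 and Krt20 stayed at or under 0.130 FPKM in every mouse, and the mesothelial and epithelial markers Msln, Upk3b and Cdh1 summed to 0.449 FPKM in KO5, 0.0763 to 0.229 FPKM in wild type and 4.90 FPKM in KO6, where Cdh1 made up 4.51 FPKM. All 3 of these markers were highest in KO6 and not in KO5.

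Krt80, a type II keratin of several differentiating epithelia, fell between both patterns. It stood at 0.523, 0.341, 0.801 and 0.478 FPKM across WT1 to WT4 and at 0.588, 9.68, 0.260 and 0.0703 FPKM across KO5 to KO8, so it was above 0 in every mouse and 12.1-fold higher in KO6 than in the next. Krt23, of glandular and simple epithelia, was instead high in KO6 alone and was listed at 0 across WT1 to WT4 and at 0.0528, 6.33, 0 and 0.0388 FPKM across KO5 to KO8. In all, 5 of the 42 genes were at or above 0.1 FPKM in every mouse, namely Krtdap, Sbsn, Krt10, Krt222 and Krt19.

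**Figure D3:**
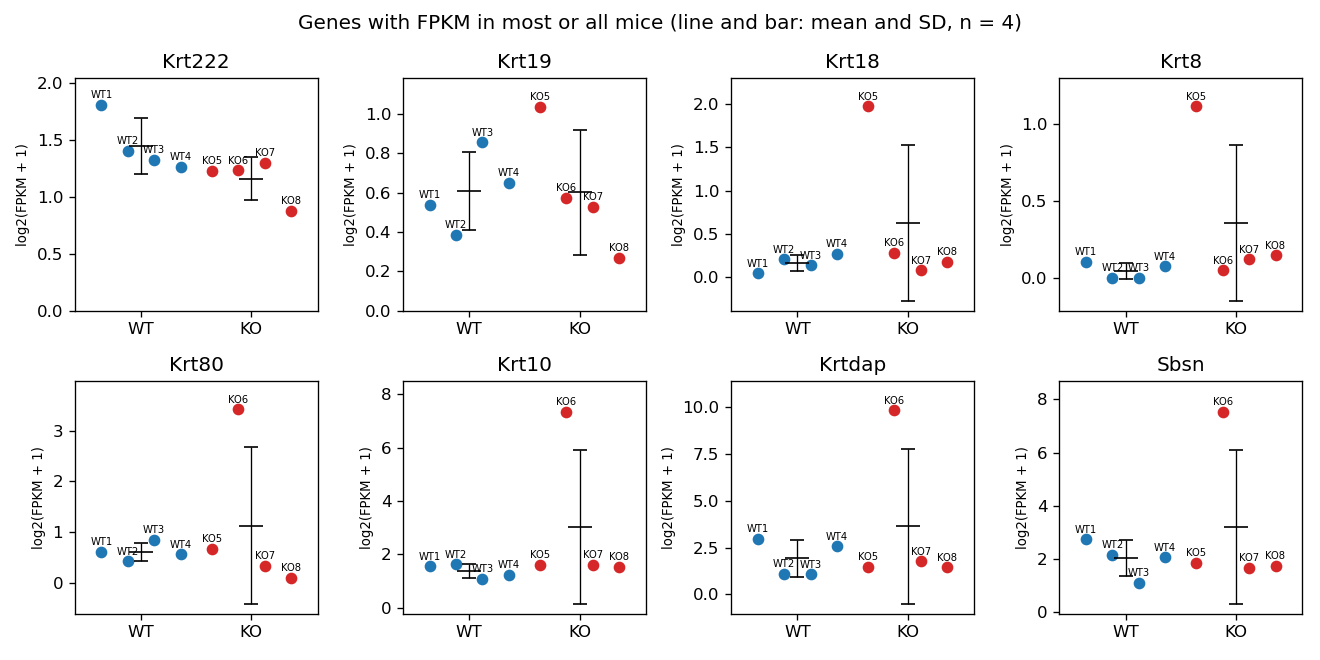
Points give log2(FPKM + 1) of each mouse for 8 genes seen in most or all mice, with the mean and SD of each genotype (n = 4). KO6 stands apart for Krt80, Krt10, Krtdap and Sbsn, KO5 stands apart for Krt18 and Krt8, and no mouse stands apart from the rest by as much for Krt222 and Krt19.

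Krtdap and Sbsn were not level among the other 7 mice. Krtdap ran from 1.08 FPKM in WT3 to 6.86 FPKM in WT1, and WT1 and WT4 were the highest 2. WT1, with Krtdap at 6.86 and Sbsn at 5.67 FPKM, had Krt14 listed at 0, Krt5 at 0.0220 and Krt1 at 0.0200 FPKM. The deposited Sbsn locus (chromosome 7, 30734739 to 30756134) begins ahead of the Sbsn gene of GENCODE M21 (30751471 to 30756134) and overlaps the non-coding Tmem147os and Gm26935 on the same strand and the protein-coding Gapdhs on the other, so its FPKM may hold reads of any of these. Krt10 overlaps the antisense gene Gm11940, and reads of either strand cannot be told apart if the libraries carry no strand. Among the 42, 9 genes overlap another annotated gene.

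Low readings of the skin genes in the other mice were also uneven. Over the 34 genes that were highest in KO6 and listed at 0 in at least 1 mouse, the FPKM summed to 1019.6 in KO6. The sum was 0.212% of that in KO8, 0.180% in KO7 and 0.170% in WT1, and 0.00469 to 0.0514% in the other 4 mice. In WT1, Sprr4 at 0.808 FPKM and Krt79 at 0.341 FPKM made up most of the sum of 1.73 FPKM. Sprr4 has 182 different 50-base stretches, the fewest of the 42 genes, so its reading may rest on few reads. KO7 and KO8 each listed 17 of the 34 genes above 0, while WT1 listed 10, WT2 and KO5 6 each, WT3 5 and WT4 1. Relative depth was 1.21 in KO7, 0.774 in KO8, 1.06 in WT1, 1.00 in WT2, 0.547 in KO5, 1.23 in WT3 and 0.437 in WT4. Whether depth plays a part in these low readings was not tested.

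The comparison of genotypes asks whether these genes differed with the loss of Bcat2, and none of the 42 passed. For genes high in KO6 alone it cannot decide this, because that mouse sets both the difference and its SE. Genes with a mean of at least 1 FPKM were tested with limma on log2(FPKM + 1), and 27 of the 42 entered, 23 of them only through KO6, so neither their count nor their direction is evidence for the genotype. At an adjusted p under 0.05, 0 of the 27 passed against 0.027% of all 11118 genes tested, and at an unadjusted p under 0.05 also 0 of the 27 against 10.3%. The log2 difference, knockout minus wild type, was 1.87 (SE 1.37, limma adjusted p = 0.583) for Krt14, 1.59 (SE 1.32, limma adjusted p = 0.613) for Lor and 1.70 (SE 1.78, limma adjusted p = 0.660) for Krtdap. All 3 differences turn on KO6, the one knockout far above the rest. With no filter on the mean, genes listed at 0 in all other mice gave nearly the same p whatever their KO6 level. The limma unadjusted p was 0.289 for Lce6a at 13.6 FPKM, 0.289 for Lce1k at 1.75 FPKM and 0.290 for Krt2 at 1.52 FPKM. Krt222 had the lowest p of the 27, at a difference of -0.29 (SE 0.20, limma adjusted p = 0.552), and was the only one of the 27 with a lower mean log2 value in knockouts.

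Without KO6, 4 of the 42 genes had a mean of at least 1 FPKM, and 0 of them passed at an adjusted p under 0.05, against 0.046% of the 10869 genes tested, or at an unadjusted p under 0.05, against 10.1%. The difference was then -0.37 (SE 0.50, limma adjusted p = 0.687) for Krtdap and -0.27 (SE 0.35, limma adjusted p = 0.679) for Sbsn, so both turned from higher to lower. It was 0.22 (SE 0.19, limma adjusted p = 0.562) for Krt10 and -0.31 (SE 0.21, limma adjusted p = 0.483) for Krt222. With no filter on the mean and all 8 mice, the difference was 0.47 (SE 0.40, limma adjusted p = 0.716) for Krt18, 0.31 (SE 0.23, limma adjusted p = 0.716) for Krt8 and -0.01 (SE 0.18, limma adjusted p = 0.991) for Krt19, and the first 2 rest on KO5. With no filter and no KO6, 34 of the 42 entered, 0 passed at an adjusted p under 0.05, against 0.0377% of the 21230 genes tested, and 1 passed at an unadjusted p under 0.05, against 7.26%. That gene was Lce1m, at a difference of 0.30 (SE 0.07, limma adjusted p = 0.620) and an unadjusted p of 0.00360, on readings of at most 0.403 FPKM. Lce1a1, Lce1c and Krt14 followed, at unadjusted p of 0.0508, 0.0524 and 0.0528.

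The authors' deposited table carries its own flags, by a test not given in the sources used here. According to the authors' deposited table, 32 of the 42 genes (76.2%) are flagged at p under 0.05 against 6.39% of all symbols, and 25 (59.5%) at p under 0.001 against 3.13%. All 32 in the authors' deposited table are among the 38 genes highest in KO6, and none of the other 4 is flagged. The 10 without a flag in the authors' deposited table are Krt8, Krt18, Krt19 and Krt222 and 6 genes that KO6 carried at under 2 FPKM (Lce1k, Krt32, Krt6a, Krt2, Krt78 and Krt75). The flags thus sit on genes whose knockout mean is set by 1 of 4 mice. The shares of the 42 and of all symbols also cover unlike sets. Each of the 42 reached at least 1 FPKM in some mouse, whereas 21847 of the 38741 symbols had a mean above 0 FPKM.

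Other genes of the epidermis were read from lists of its junctions, enzymes and regulators. Of 35 envelope enzymes and further genes of epidermal differentiation, 32 were highest in KO6, and 0 were listed at 0 in all mice. Lgals7, a lectin of stratified epithelia, read 406 FPKM in KO6 against 0.0871 to 3.43 FPKM. Dmkn, or dermokine, which lies between Sbsn and Krtdap, read 218 FPKM against 0 to 1.28 FPKM, and the keratinocyte surface protein Ly6d 191 FPKM against 0.104 to 0.911 FPKM. The protease Klk7, which cuts the bonds of shed cells, read 29.4 FPKM, and the transglutaminase Tgm1, which cross-links the envelope, 2.24 FPKM. S100a16 was high in every mouse, at 91.8 FPKM in KO6 against 53.3 to 85.7 FPKM. Cdsn, or corneodesmosin, read 13.7 FPKM in KO6 and also 5.55 FPKM in WT1, with at most 0.274 FPKM in the other 6 mice.

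Of 19 genes of desmosomes and the basement membrane, 14 were highest in KO6. Perp, a desmosomal membrane protein, read 155 FPKM in KO6. It read 4.99, 1.93 and 1.67 FPKM in KO5, KO7 and KO8, against 0.897 to 1.40 FPKM in wild type. Col17a1, a collagen that anchors basal cells, read 12.7 FPKM against 0.0375 to 0.388 FPKM, and the desmosomal Dsp and Pkp1 read 8.20 and 9.97 FPKM. Jup, Dst and Plec, which muscle also makes, were not set apart by KO6, with Jup at 24.8 against 7.91 to 28.0 FPKM. Nor were Itga6, at 13.9 against 6.81 to 20.4 FPKM, and Col7a1, at 1.63 against 1.04 to 3.92 FPKM. Itgb4 was highest in KO6 by less, at 2.44 against 0.457 to 1.25 FPKM. Of 15 epidermal transcription factors, 12 were highest in KO6, among them Grhl1 at 5.80 against 0.0162 to 0.289 FPKM, while Barx2 stood at 2.75 FPKM there, inside the range of the others of 1.48 to 5.84 FPKM. Trp63, the master factor of basal cells, read 5.06 FPKM in KO6 and 1.06 to 3.12 FPKM in the others, and these gene-level values do not tell its isoforms apart.

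Markers of other cells of skin moved with the keratins in part. Of 7 sebaceous gland genes, 6 were highest in KO6, such as the wax synthases Awat2 at 13.5 against 0.153 to 0.382 FPKM and Awat1 at 7.02 against 0 to 0.0562 FPKM. The seventh, Mgst1, is common to many tissues and stood at 422 FPKM in KO6 and 679 FPKM in WT1. Of 4 genes used for Langerhans cells, 3 were highest in KO6. Cd207, or langerin, read 1.24 FPKM there and at most 0.0321 FPKM elsewhere, and the epithelial adhesion protein Epcam 4.72 against 0 to 0.0619 FPKM. Cd74, which other antigen-presenting cells also make, read 146 FPKM in KO6 and 111 FPKM in WT1, and the fourth, Cd1d1, was highest in WT1 at 24.2 FPKM against 7.32 FPKM in KO6. Of 6 melanocyte genes, 2 were highest in KO6, with Dct at 0.650 FPKM against 0.0860 to 0.334 FPKM, and Mitf, which is not limited to melanocytes, at 3.25 FPKM in KO6 and 3.32 FPKM in KO5. Of 55 Krtap genes, which build the hair shaft, 40 were listed at 0 in all mice and 7 were highest in KO6. Their sum was 8.51 FPKM in KO6 and 0 to 1.46 FPKM in the others, with Krtap19-9a at 4.80 FPKM and Krtap16-3 at 1.42 FPKM in KO6, both listed at 0 elsewhere. The Merkel cell genes Atoh1 and Piezo2 summed to 0.132 FPKM in KO6, inside the range of the other mice.

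Fat markers were high in KO6 and also in WT1. The 6 adipocyte genes, none of them highest in KO6, summed to 15321 FPKM in WT1 and 8060.0 FPKM in KO6, against 608 to 2006 FPKM in the other 6 mice. Fabp4, a fatty acid carrier, stood at 9313 FPKM in WT1 and 5706 FPKM in KO6. WT1, with the most fat transcript, held basal keratins at 0.218 FPKM in sum and KO6 at 277 FPKM. The 7 muscle fibre genes summed to 28316 FPKM in KO6, the lowest of the 8, against 28999 to 37285 FPKM in the others. In whole muscle, fewer cells of a type and less RNA per cell cannot be told apart, and what part any other tissue has in the KO6 library was not tested.

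**Figure D4:**
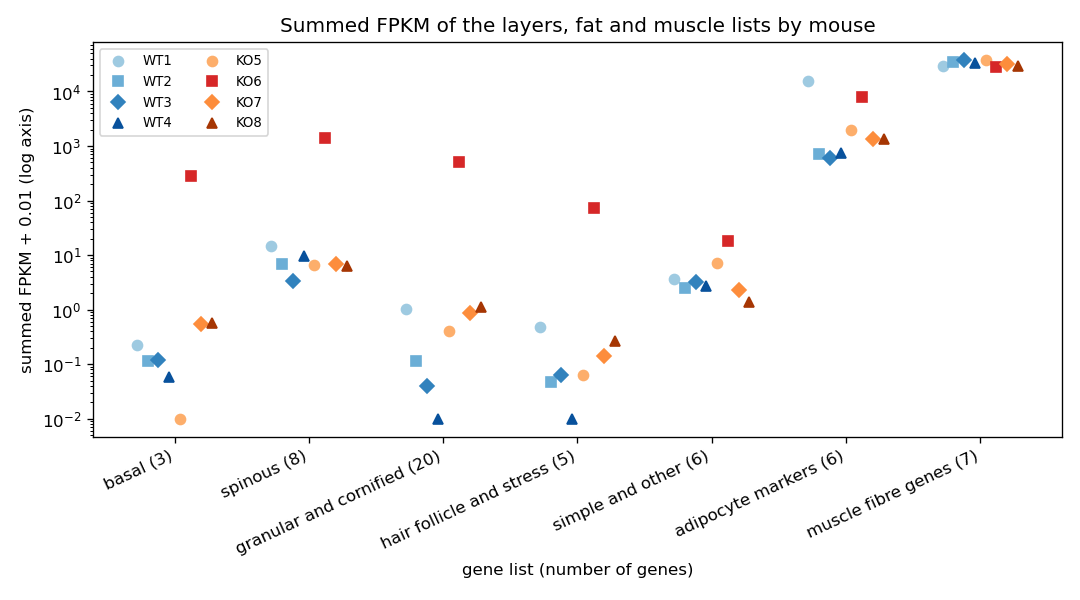
Each point is the FPKM of a gene list summed in 1 mouse, plus 0.01, on a log axis. KO6 lies above the other 7 mice by over 10-fold in the 4 skin lists, WT1 and KO6 are both high in adipocyte markers, and the muscle fibre list is level.

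The KO6 pattern reached beyond the lists. Symbols at 5 FPKM or more in 1 mouse and at most 0.25 FPKM in each of the other 7 numbered 118 in KO6 and 24 to 51 in the other mice. Of the 118 in KO6, 20 were keratin or envelope genes and 68 were other protein-coding genes, against 1 to 6 protein-coding genes in each other mouse. The 68 were not chosen by tissue. Polr2h at 12.6 FPKM and Ncbp1 at 11.2 FPKM, for example, were listed at 0 in each of the other 7 mice. Such listings also occur outside KO6, as for Cox20 at 40.3 FPKM in KO8 and 0 elsewhere. Whether these zeros mean absent transcripts was not tested. Among the 118, those named in full include Trbj1-6 at 326 FPKM and Traj15 at 96.7 FPKM, joining segments of T cell receptor genes that are very short, which inflates FPKM. Crct1, a cysteine-rich gene of the epidermal differentiation complex, read 107 FPKM, Csta, an inhibitor of cysteine proteases in the envelope, 78.5 FPKM, the epithelial calcium-binding protein S100a14 61.2 FPKM and Dapl1, an epithelial gene, 55.9 FPKM. Ccl27a, a chemokine made by keratinocytes, read 43.1 FPKM, Elovl4, which makes the very long fatty acids of the skin barrier, 40.6 FPKM, and the metallothionein of stratified epithelia Mt4 36.2 FPKM. Glycam1, a mucin of lymph node vessels, read 34.7 FPKM. The rule also named 5 microRNA genes, with mmu-mir-6972 at 85.1 FPKM, mmu-mir-7046 at 64.5 FPKM, mmu-mir-6973a at 49.7 FPKM, Mir382 at 48.8 FPKM and Mir143 at 43.1 FPKM. These loci are very short as well, which inflates FPKM, so the values are not a measure of microRNA level. Symbols that are not protein-coding fill most of the counts of the other mice.

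**Figure D5:**
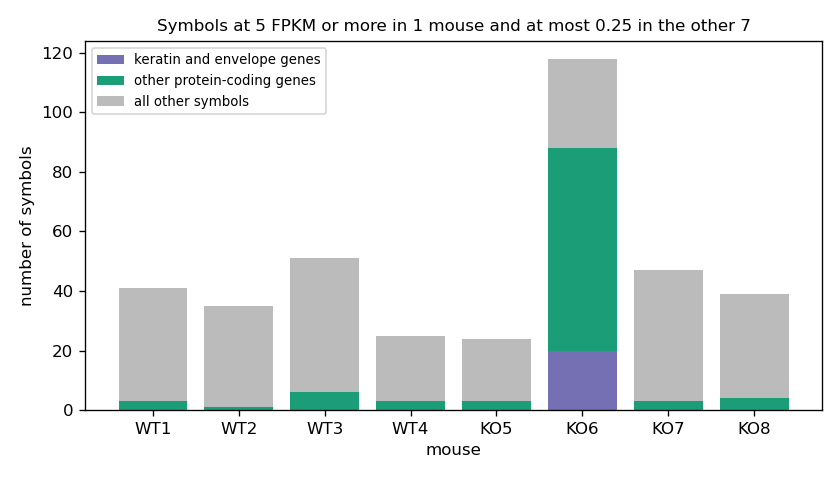
Bars count, for each mouse, the symbols at 5 FPKM or more there and at most 0.25 FPKM in each of the other 7, split into keratin and envelope genes, other protein-coding genes and all other symbols. KO6 reaches 118, of which 20 are keratin or envelope genes, and the other mice 24 to 51 with none.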

How the data were processed

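Per the labels' protocols, TruSeq v2 libraries shared a lane and gave single reads of 50 bases. The authors aligned reads to mm10 with TopHat 2.0.9 and computed FPKM from uniquely mapped reads with Cufflinks, given as 2.0.2 in the labels' protocols and 2.2.1 in the submitters' processing notes. No strand setting or annotation is named in the sources used here. Each row of the deposited table holds FPKM per mouse and the authors' other columns of flags (0 or 1) for their p-value, per the file headers. FPKM carry no read totals, so depth was only set relative to WT2, as the mode of log2 ratios of FPKM under 0.3 (kernel SD 0.05), and no counting interval is given. Column WT1 was matched to the mouse titled Wildtype 1 and so on, and the columns KO5 to KO8 to the knockout group only. Nothing says how mice were littered, so p-values measure the spread between these 8 mice.

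For symbols on several of the 39009 rows, the row with the highest mean was used. Positions are the deposited start plus 1. The fit was limma-trend 3.58.1 (R 4.3.3) across all genes with a mean of at least 1 FPKM, on log2(FPKM + 1), 2-sided, Benjamini-Hochberg adjusted, with genotype as the only term, which understates the change of low genes. In fits without a mouse the filter was applied to the mice kept. The code was tested on simulated data. Shared sequence is the share of a gene's 50-base stretches in GENCODE M21 that recur in another gene's transcript on either strand. Python 3.11.15, pandas 2.3.3 and matplotlib 3.10.9 were used.

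The genes and lists were chosen with earlier results of these data known. Named in full were up to 6 genes per layer by highest FPKM, those at 0.1 FPKM or more in every mouse, 2 to 4 per further list, and the 15 other genes highest in KO6 alone, leaving out Gm-numbered, Riken and accession-like names. Genes named beyond this were chosen after their values were seen. The value of 1 gene that the rule named is not reported here.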

Additional observations from a re-analysis of the deposited data

Results flagged for a closer look

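Within each genotype, a mouse was flagged where its gap to the nearest other mouse, divided by the range of the 4 mice, exceeded Dixon's critical value for 4 samples. For normally distributed values, chance alone would flag about 1 in 20 groups. That rate does not hold here, since a gene above 0 in 1 mouse of a genotype is always flagged. Genes were also kept for reaching 1 FPKM in at least 1 mouse, which favours such flags. Of 64 gene and genotype groups with any spread, 51 were flagged, and this count is a description. KO6 was the highest knockout for 38 genes, with ratios of 0.946 (Krt80), 0.981, 0.982, 0.987, 0.990, 0.991, 0.992, 0.995, 0.996, 0.997, 0.998, 0.999 and 1.00. KO5 was the highest knockout for Krt18 (0.944) and Krt8 (0.937). Among wild-type mice, WT1 was flagged for 6 genes, Krt79 (0.893) and Krt17, Lce1b, Krt1, Sprr4 and Dsg1a (1.00 each), WT2 for Krt14, Krt77, Lce1a2 and Krt75 (1.00 each) and WT4 for Krt5 (0.860). The wild-type flags concern values of at most 0.808 FPKM, and a ratio of 1.00 there means that the other 3 mice were listed at 0.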

How the results depend on the processing

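No keratin or envelope gene passed the limma threshold under any of the 16 alternatives run: pseudocounts of 0.1 and 0.5, no filter, a mean of at least 5 FPKM, median-ratio and quantile scaling, summed rows, each mouse left out, and both WT1 and KO6 left out. Genes high in KO6 alone could hardly pass in any run that kept KO6. Among the differences of single genes, 4 changed direction. Without both WT1 and KO6, Krtdap stood at -0.0155 and Sbsn at -0.0259. With each mouse left out, Krtdap ran from -0.37 (without KO6) to 2.43 and Sbsn from -0.27 (without KO6) to 1.69. Of all genes, 3 passed, and with single mice left out 3 to 8, and 10 without both WT1 and KO6. The cause was not tested. The numbers of genes kept, highest in KO6 or present in every mouse stayed within 1.5 times under other thresholds. The 118 symbols found in KO6 alone became 154 (at least 2 FPKM, at most 0.1 elsewhere), 83 (at least 10, at most 0.5) and, under settings chosen after seeing the data, 72 (at least 10, at most 0.25) and 87 (protein-coding only). Median-ratio scaling moved the median of all genes from -0.12 to -0.002 on the log2 scale and turned no direction among the keratin and envelope genes tested. No paired analysis was possible because the knockout columns carry numbers that match no wild-type number. The precision of values under about 0.1 FPKM is limited, since FPKM carry no counts.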
